A study of Mus musculus with 16 samples.

Results

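The mitochondrial ribosomal protein genes are the nuclear genes for the proteins of the ribosome inside mitochondria. They were taken here as every gene whose only symbol in the array annotation is Mrpl (named for the large subunit) or Mrps (named for the small subunit) followed by a number. The array carried 64 such genes on 79 probes, among 9930 genes with a single symbol. Of these, 53 genes on 63 probes gave a ratio on enough arrays to be fitted, 33 with Mrpl and 20 with Mrps symbols. The other 11 (Mrpl9, Mrpl10, Mrpl11, Mrpl12, Mrpl38, Mrpl42, Mrpl43, Mrps6, Mrps24, Mrps34 and Mrps35) had too few ratios and were left out of the main fit.

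The cells were NIH3T3, an established line of mouse fibroblasts, either transfected with Erbb2, a receptor tyrosine kinase of the epidermal growth factor receptor family, or untransfected. They were treated with azacytidine, a nucleoside that cells incorporate in place of cytidine and that binds DNA methyltransferases irreversibly, so that methylation is lost as cells divide. Each array compared treated with untreated cells of the same line on 2-colour cDNA spots: 8 arrays of Erbb2 cells at 10 µM, 4 of Erbb2 cells at 5 µM, and 4 of untransfected cells at 10 µM. The labels give no duration of treatment, do not say whether the transfected line was 1 clone, and do not say whether arrays came from separate cultures, so the p-values measure only the spread between these arrays. The study asked which genes azacytidine changes in Erbb2 cells, with the untransfected cells as its control experiment.

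The mitochondrial ribosome translates the few messenger RNAs made from mitochondrial DNA, all of which encode subunits of the oxidative phosphorylation complexes. Its RNAs come from the mitochondrial genome, whereas each of its proteins is encoded in the nucleus, made in the cytosol and imported. Many of these nuclear genes start in CpG-rich promoters, and NRF1, ETS-family factors and YY1 are known to bind promoters of genes for mitochondrial proteins.

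Azacytidine acts on CpG methylation, and the CpG counts of the promoters are shown first. Their methylation was not measured, so a CpG count does not mark a promoter as a target of the drug. RefSeq (GRCm38.p6) gave a window of 300 bases, 250 before and 50 after the start, for 49 of the 53 members. Where a gene had 2 or more starts, as 3 members did, its highest count was taken. The members held a median of 21 CpG dinucleotides, from 7 to 43. The median was 8 over all 27025 genes with a window, whether or not they were on the array. The windows of Mrpl30 (chr1:37890227-37890526, plus strand, 23 CpG) and Mrpl44 (chr1:79775768-79776067, plus strand, 7 CpG) are printed with each CpG in capitals. These genes were picked because they had the lowest and the highest fitted values at 5 µM and differ widely in CpG number. Neither was called there in the main fit, and a relation between CpG number and fitted value over the members was not tested. The window of Mrps18b (chr17:35916391-35916690, minus strand, 25 CpG), a gene with fitted values below 0 in all 3 groups as read here, is printed with its match to the NRF1 letters in capitals.
Mrpl30: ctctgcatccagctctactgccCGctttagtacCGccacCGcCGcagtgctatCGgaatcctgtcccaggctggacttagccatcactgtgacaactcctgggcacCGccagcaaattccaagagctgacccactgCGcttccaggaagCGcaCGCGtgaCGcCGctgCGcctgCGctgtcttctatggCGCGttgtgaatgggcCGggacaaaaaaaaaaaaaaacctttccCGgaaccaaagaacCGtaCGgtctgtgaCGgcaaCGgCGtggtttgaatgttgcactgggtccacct
Mrpl44: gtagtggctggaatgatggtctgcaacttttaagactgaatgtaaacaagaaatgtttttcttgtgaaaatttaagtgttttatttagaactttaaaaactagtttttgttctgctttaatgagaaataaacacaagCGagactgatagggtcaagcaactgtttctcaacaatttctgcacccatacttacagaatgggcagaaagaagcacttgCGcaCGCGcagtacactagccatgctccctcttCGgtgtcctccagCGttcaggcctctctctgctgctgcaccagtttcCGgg
Mrps18b: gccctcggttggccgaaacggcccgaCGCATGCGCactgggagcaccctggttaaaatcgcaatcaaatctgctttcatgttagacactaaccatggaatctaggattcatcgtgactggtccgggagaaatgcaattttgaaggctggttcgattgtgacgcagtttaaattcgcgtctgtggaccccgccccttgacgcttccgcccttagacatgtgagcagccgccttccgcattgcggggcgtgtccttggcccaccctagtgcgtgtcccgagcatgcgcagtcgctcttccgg

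The letters CGCANGCGC, the core of the NRF1 motif, were found on either strand in 11 of the 49 members with a window (22.4%). The share was 7.12% over the 27025 genes with a window, and a match in any window of a gene counted. All 3 promoters above are among the 11. The ETS letters CCGGAAGT were in 10 members (20.4% against 4.31%), and the YY1 letters AAGATGGCG in 6 (12.2% against 1.64%). The E box CACGTG was in 5 (10.2% against 8.09%). Each set of letters contains CpG, in which the members' windows are richer (median 21 against 8). No set of genes matched for CpG number was compared, so the higher shares cannot be called particular to these genes. Each set of letters was searched on its own, on both strands, so matches to different letters may overlap. These are matches of letters, and the arrays measured neither binding nor methylation at them.

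The files held log2 ratios centred near 0, with 16153 to 18507 ratios per array. They do not state which dye is on top. They were read as Cy5 over Cy3, and the sign was turned where the treated RNA was in Cy3, so a value above 0 means likely higher after azacytidine. In the untransfected cells both channels carry the same dye label, and the sign of that whole group is doubtful. Read in the other dye, each fitted value of that group keeps its size and p and changes its sign. The ratios hold no expression level, so the fibroblast markers could be read only as ratios. Of 10 measured, 1 was called higher in Erbb2 cells at 10 µM and, as read, 3 lower in untransfected cells.

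No member passed an adjusted p of 0.05 in limma in any group. In Erbb2 cells at 10 µM, 0 of 53 members were called while 1.26% of all 12420 features were. The corresponding counts were 0 of 53 against 0.209% at 5 µM and 0 of 53 against 2.73% in untransfected cells. At an unadjusted p under 0.05 there were 3 members at 10 µM, 1 at 5 µM and 0 in the untransfected group, or 5.66%, 1.89% and 0% of the members, against 10.8%, 6.33% and 11.5% of all features. In bulk RNA, fewer cells with a transcript and less of it per cell cannot be told apart.

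As a group the members lay near 0. Their median fitted log2 ratio was 0.004 in Erbb2 cells at 10 µM, with 27 above and 26 below 0, where the median of all features was -0.003. Leaving out arrays 3, 5 and 6 of that group, to which the array-weight fit gave the lowest weights, left 0 members called and a median of 0.042. With all arrays, the members' median was 0.03 at 5 µM, with 29 above and 24 below, against -0.018, and 0.047 in untransfected cells, with 32 above and 21 below, against 0.031. The middle of the distribution was narrow: the interquartile range ran from -0.10 to 0.23, from -0.16 to 0.18 and from -0.09 to 0.24 in the same order.

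The precision varied widely between members. The 95% interval lay wholly between a 2-fold decrease and a 2-fold increase for 40 of 53 members at 10 µM, 30 at 5 µM and 32 in the untransfected group. That is 75.5%, 56.6% and 60.4% of the members, against 63.5%, 47.6% and 42.7% of all features. Mrpl1 was the most tightly measured, with a half-width of 0.197 around a value of 0.011 at 10 µM. Its 8 arrays ran from -0.16 to 0.23 with a median of 0.003, and its 5 µM arrays gave 0.073, -0.24, -0.23 and -0.19. Mrps5, a counterpart of a bacterial small-subunit protein involved in decoding accuracy, was the least certain, with a half-width of 1.85 at 10 µM and arrays from -5.34 to 5.32.

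**Figure D1:**
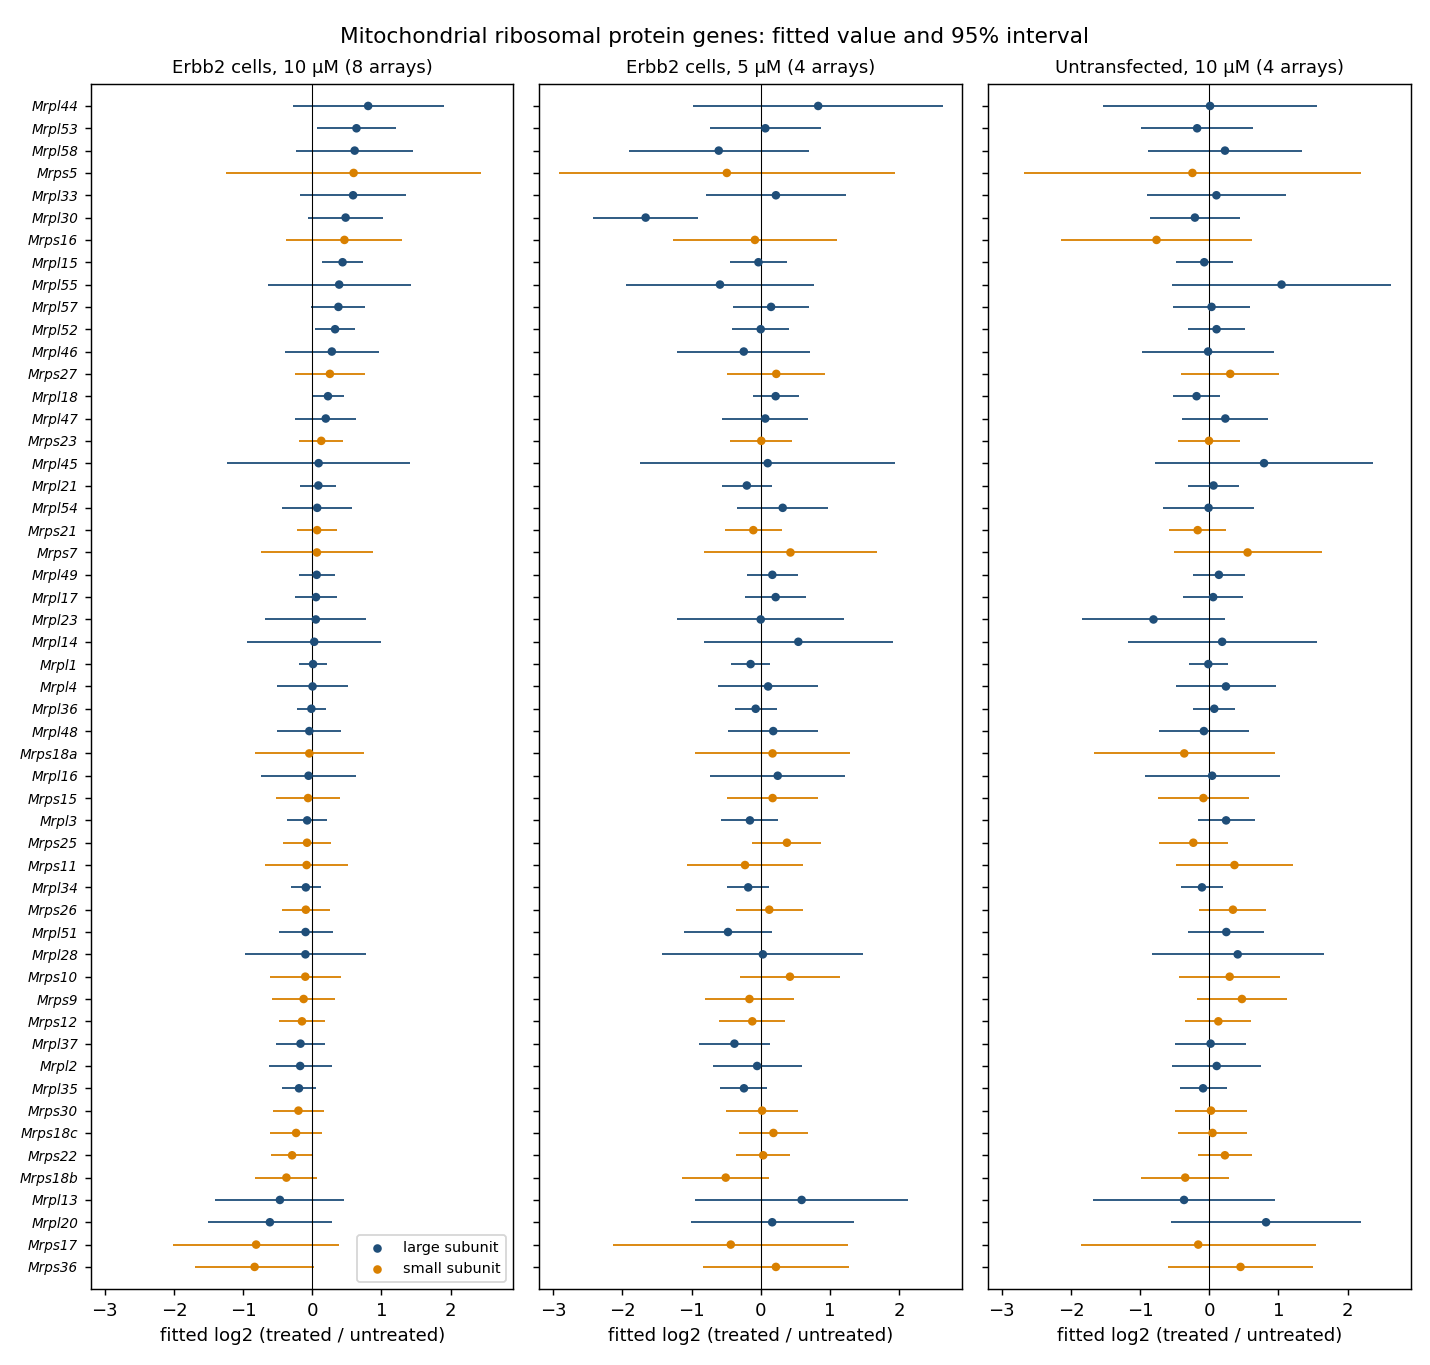
Fitted log2 ratio of treated over untreated RNA (point) and 95% interval (line) for each of the 53 members in the 3 groups, ordered by the value in Erbb2 cells at 10 µM and coloured by the subunit in the symbol. Medians of 0.004, 0.03 and 0.047 lie near 0 in all 3 panels, and Mrpl30 at 5 µM stands farthest below it at -1.67.

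By symbol, the large-subunit members had medians of 0.054 for Erbb2 cells given 10 µM, 0.03 for those given 5 µM and 0.056 for untransfected cells. The small-subunit members had -0.088, 0.027 and 0.036. At 10 µM, 21 of 33 Mrpl genes but 6 of 20 Mrps genes had a fitted value above 0, against 49.4% of all features, and 0 of either passed the test. At 5 µM the counts were 17 of 33 and 12 of 20, and in untransfected cells as read 21 of 33 and 11 of 20. The difference between the subunits was not tested. Mrps18a and Mrps30 carry small-subunit symbols although the proteins lie in the large subunit. Mrps36, the lowest Mrps gene at 10 µM, is now known as part of another complex (below), so the symbol is an imperfect guide.

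Among the large-subunit genes, Mrpl30 stood apart in Erbb2 cells at 5 µM. Mrpl30 encodes the counterpart of a bacterial large-subunit protein and was measured by 1 kept probe. At 5 µM it gave -3.10 on array 1, -0.26 on array 3, -1.18 on array 4 and no ratio on array 2. All 3 values lay below 0, but they differed widely among themselves, and array 1 gave the lowest. The fitted value was -1.67 ± 0.35 (SE, n = 3), a 3.17-fold lower ratio, with an adjusted p of 0.131.

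At 10 µM in the same cells, Mrpl30 gave 0.14, 0.20, -0.023, 0.18, 0.49 and 0.997 on the 6 arrays with a ratio. Every one of these was higher than each of the 3 values at 5 µM. The fitted value was 0.48 ± 0.25 (SE, n = 6) with an adjusted p of 0.524. In untransfected cells the arrays as read gave -0.88, 0.17, -0.25 and 0.13, which overlap both Erbb2 groups, and the fit gave -0.21 ± 0.29 (SE, n = 4). Turned, they would give 0.88, -0.17, 0.25 and -0.13, all above the 5 µM values.

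The difference between the doses for Mrpl30 was 2.15 ± 0.43 (SE) on the log2 scale, higher at 10 µM, with an unadjusted p of 0.000383 and an adjusted p of 0.682 over 12420 features. It rests on few arrays: without array 1 of the 5 µM group the difference was 1.37, and the 5 µM value was -0.96 with an adjusted p of 0.635. With no array turned the difference was 0.59, from -0.064 at 10 µM and -0.65 at 5 µM. Weighting the arrays by their estimated noise brought the 5 µM value to -1.85 with an adjusted p of 0.0158, the only one of the alternatives run in which a member passed. The weights at 5 µM were 1.74 for array 1, 0.946 for array 3 and 1.93 for array 4. That fit therefore leans more on array 1, without which the value was -0.96, than on array 3.

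Mrpl44, a large-subunit protein with a fold related to ribonuclease III, had the highest fitted value of any member in both Erbb2 groups. At 10 µM its 8 arrays ran from -0.50 to 5.45 with a median of 0.168, and at 5 µM the arrays gave 0.37, 1.26 and 0.70. At 10 µM a single array, number 6, carried the height, whereas the 3 ratios at 5 µM were all above 0. The fitted values were 0.81 ± 0.51 (SE, n = 8, adjusted p = 0.602) and 0.83 ± 0.84 (SE, n = 3, adjusted p = 1). In untransfected cells the 4 arrays lay within 0.1 of 0, at 0.049, 0.067, -0.08 and 0.01.

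Mrpl53, Mrpl52 and Mrpl55 encode proteins of the mitochondrial large subunit that bacteria lack. Mrpl53 ran from -0.95 to 2.36 at 10 µM in Erbb2 cells with a median of 0.474 and 6 of 8 arrays above 0. Its fitted value was 0.64 ± 0.27 (SE, n = 8, adjusted p = 0.391), a 1.56-fold higher ratio. At 5 µM it gave 0.14, -0.054, -0.022 and 0.20, and in untransfected cells -0.098, 0.071, -0.34 and -0.34, both inside the range at 10 µM.

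Mrpl52 and Mrpl15 were picked out after their values were seen, as the other members with an unadjusted p under 0.05 at 10 µM. Mrpl15, the counterpart of a bacterial large-subunit protein, ran from -0.125 to 1.02 with a median of 0.475 and 6 of 8 arrays above 0. It had the lowest adjusted p of the members at 10 µM, 0.208, at 0.44 ± 0.14 (SE, n = 8), a 1.35-fold higher ratio. Its arrays at 5 µM (0.24, -0.32, 0.028 and -0.086) and in untransfected cells (-0.16, -0.078, -0.055 and 0.002) lay on both sides of 0 and overlapped those at 10 µM. Mrpl52 ran from -0.028 to 1.33 with a median of 0.219, 7 of 8 arrays above 0 and a fitted value of 0.33 ± 0.14 (SE, adjusted p = 0.39).

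As read, Mrpl55 lay on opposite sides of 0 in the Erbb2 cells at 5 µM and the untransfected cells. Its arrays gave -0.54, -0.021, -1.24 and -0.56 at 5 µM, all below 0. In untransfected cells they gave 0.72, 0.17 and 2.72, all above 0 and clear of the 5 µM values. At 10 µM in Erbb2 cells 7 arrays ran from -2.25 to 2.48 and overlapped both. With the untransfected arrays turned, their 3 values would be -0.72, -0.17 and -2.72, on the same side of 0 as those at 5 µM. The fitted values were -0.59 ± 0.63 (SE, n = 4) and 1.04 ± 0.73 (SE, n = 3), with adjusted p of 1 and 0.744.

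**Figure D2:**
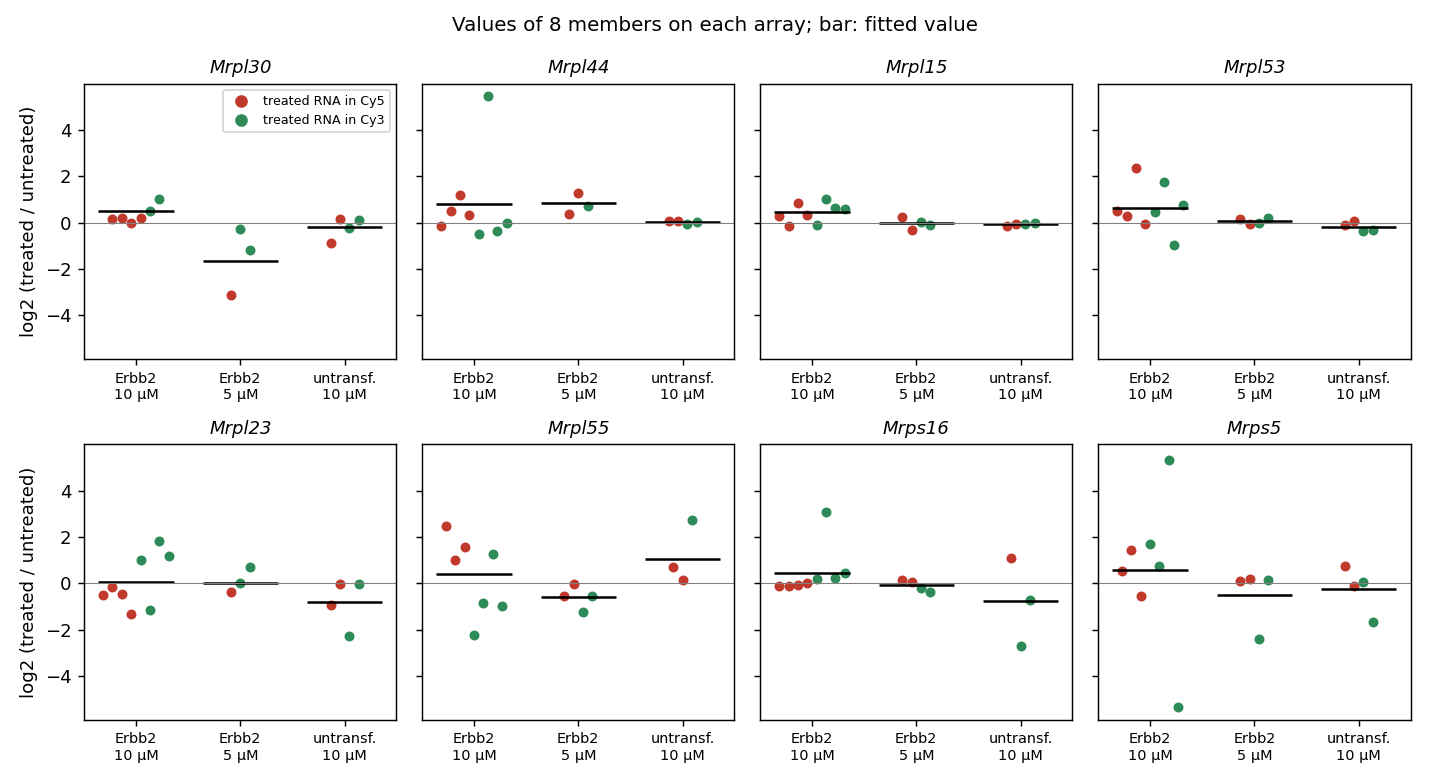
Log2 ratio of treated over untreated RNA on each array for 8 members in the 3 groups, coloured by the dye that carried the treated RNA, with the fitted value as a bar. The 3 ratios of Mrpl30 at 5 µM (-3.10, -0.26 and -1.18) lie below all 6 at 10 µM, and single arrays set the height of Mrpl44 (5.45) and Mrps16 (3.09) at 10 µM.

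Mrpl23 and Mrpl45 encode proteins at the exit of the tunnel through which the new protein chain leaves, and Mrpl45 holds the ribosome to the inner membrane. Mrpl23 had, as read, the lowest fitted value in untransfected cells, -0.81 ± 0.48 (SE, n = 4, adjusted p = 0.628), from arrays at -0.92, -0.039, -2.25 and -0.022. It was then the only member below 0 on all 4 of those arrays, although 2 of them were within 0.04 of 0. Turned, its fitted value would be 0.81, the highest of the members. Mrpl45 gave, as read, 3.81, -0.30, -0.70 and 0.37 in untransfected cells, so its fitted 0.79 ± 0.72 (SE, n = 4) came from 1 array. Turned, it would be -0.79.

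Mrpl58, a ribosome-bound peptidyl-tRNA hydrolase that frees stalled ribosomes, gave -0.28, -1.41 and -0.39 at 5 µM, all below 0. At 10 µM in Erbb2 cells its 7 arrays ran from -1.22 to 2.76 with a median of 0.785 and overlapped those at 5 µM. The fitted values were -0.61 ± 0.60 (SE, n = 3) and 0.61 ± 0.39 (SE, n = 7). The dose difference of 1.22 was the largest of any member after that of Mrpl30, with a 95% interval from -0.32 to 2.76.

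Mrpl13, Mrpl14, Mrpl20 and Mrpl33 are counterparts of bacterial large-subunit proteins, and Mrpl14 lies on the face that meets the small subunit. Mrpl13 was among the 5 lowest members at 10 µM (-0.47 ± 0.43, SE, n = 8) and among the 5 highest at 5 µM (0.59 ± 0.71, SE, n = 3). Mrpl20 was likewise, as read, among the lowest in Erbb2 cells at 10 µM (-0.61 ± 0.41, SE, n = 7) and among the highest in untransfected cells (0.82 ± 0.63, SE, n = 3). Mrpl33 reached 0.59 ± 0.35 (SE, n = 7) at 10 µM, and Mrpl14 0.54 ± 0.64 (SE, n = 4) at 5 µM. None had an adjusted p below 0.588 in any of the 3 groups.

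Among the genes with Mrps symbols, Mrps36 and Mrps17 had the lowest fitted values at 10 µM in Erbb2 cells. Mrps36, whose product is now known as a subunit of the 2-oxoglutarate dehydrogenase complex, ran from -1.88 to 0.012 with a median of -0.77, and 5 of 6 arrays lay below 0. Its fitted value was -0.83 ± 0.39 (SE, n = 6, adjusted p = 0.48), a 1.78-fold lower ratio. At 5 µM it gave -1.35, -0.26, 2.69 and -0.21, and in untransfected cells 0.52, 0.86, -0.165 and 0.58. The 5 µM arrays overlapped those at 10 µM, and 3 of the 4 untransfected arrays lay above every Erbb2 array at 10 µM. Turned, the untransfected arrays would give -0.52, -0.86, 0.165 and -0.58, and 3 of the 4 would lie inside the range at 10 µM.

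Mrps17, a counterpart of a bacterial protein that binds small-subunit RNA, ran from -5.33 to 0.88 at 10 µM with a median of -0.312. Its fitted -0.81 ± 0.56 (SE, n = 8, adjusted p = 0.644) was pulled down by array 3. It was, with Mrpl34, Mrpl35 and Mrps18b, 1 of 4 members with a fitted value below 0 in all 3 groups. The number above 0 in all 3 was 11, and the other 38 were mixed. That is 7.55% below, 20.8% above and 71.7% mixed, against 14.4%, 13.5% and 72.1% of all features. With the untransfected group turned, 8 members lay below 0 in all 3, 4 above and 41 were mixed.

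Mrps18a and Mrps18b are paralogues of a single bacterial small-subunit protein. Mrps18b was among the 5 lowest members in each group as read, at -0.37 ± 0.21 (SE, n = 8), -0.51 ± 0.30 (SE, n = 4) and -0.35 ± 0.30 (SE, n = 4). It gave -1.23, -0.016, -0.82 and 0.04 at 5 µM and 0.083, 0.053, -0.75 and -0.78 in untransfected cells. In both groups a pair of arrays was clearly low and a pair was near 0, and adjusted p was 0.549, 0.959 and 0.844. In untransfected cells the split followed the dye as labelled, with a mean of 0.068 for treated RNA in Cy5 and -0.766 in Cy3. At 5 µM each dye arrangement held a low array and an array near 0. With the untransfected group turned, its value there would be 0.35, among the 5 highest. Its probes lay on opposite sides of 0 at 10 µM, at 0.191 and -0.736. They differed by 0.93 on the log2 scale, the largest gap at that dose among the 9 members with 2 or more probes. Mrps18a was, as read, among the lowest in untransfected cells alone, at -0.36 ± 0.61 (SE, n = 3). Turned, it would be at 0.36 there, also among the 5 highest.

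Mrps7, Mrps9 and Mrps10 encode proteins of the small subunit's head, and each was, as read, among the 5 highest members in at least 1 group. Mrps7 gave 0.71, 0.53, 0.74 and 0.23 in untransfected cells as read, all above 0, with a fitted value of 0.55 ± 0.49 (SE, n = 4, adjusted p = 0.872). At 5 µM it gave -1.10, -0.21 and 2.52, on both sides of 0, and its 0.43 ± 0.58 (SE, n = 3) came from the last of these. Mrps9 reached 0.47 ± 0.30 (SE, n = 4, adjusted p = 0.68) in untransfected cells as read, with 3 of 4 arrays above 0. Turned, Mrps7 and Mrps9 would be at -0.55 and -0.47 there, both among the 5 lowest.

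Mrps10 gave 0.47, 0.34, 1.10 and -0.22 at 5 µM, at 0.42 ± 0.34 (SE, n = 4). Mrps16, the counterpart of a bacterial protein of the small subunit's body, gave 1.08, -2.68 and -0.71 in untransfected cells as read. Its -0.76 ± 0.64 (SE, n = 3, adjusted p = 0.841) there spans both directions and would be 0.76 if turned. At 10 µM it ran from -0.094 to 3.09 with a median of 0.104. Outside array 6 all its ratios there were between -0.1 and 0.45.

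The remaining members were nearer 0. Outside the 5 highest and 5 lowest in each group, the other 43 lay between -0.29 and 0.48 at 10 µM, between -0.47 and 0.38 at 5 µM and between -0.24 and 0.45 in untransfected cells. Probes of 1 gene did not always point the same way: of the 9 members with several kept probes, 6 had probes of opposite sign at 10 µM, 4 at 5 µM and 5 in the untransfected group. The median gap between such probes was 0.331, 0.396 and 0.276, as large as most of the members' fitted values.

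The dose comparison asked whether 10 µM and 5 µM differed in Erbb2 cells. It called 0 of 53 members, as it called 0% of all features, with 1 member and 4.33% of features at an unadjusted p under 0.05. Member differences had a median of 0.032 and ran from -1.06 (Mrpl13) to 2.15 (Mrpl30). The 95% interval stayed within 2-fold either way for 25 of 53 members, so differences of that size were not excluded for the other 28.

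The line comparison, Erbb2 against untransfected cells at 10 µM, uses the same Erbb2 arrays as the dose comparison. It called 0 of 53 members and 0.813% of all features. At an unadjusted p under 0.05 there were 3 members (5.66% against 9.72% of features), all named after their values were seen: Mrpl15 at 0.51 ± 0.24, Mrpl18 at 0.41 ± 0.19 and Mrps22 at -0.52 ± 0.23 (SE, adjusted p 0.509, 0.513 and 0.489). The members ran from -1.43 (Mrpl20) to 1.23 (Mrps16) with a median of -0.048. With the untransfected arrays in the other dye the contrast had 0 members at an unadjusted p under 0.05 and a member median of 0.149, so its sizes as well as its signs depend on their reading.

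Mrps22, a small-subunit protein that bacteria lack, gave 0.51, 0.33, 0.099 and -0.038 in untransfected cells as read. At 10 µM its 7 ratios in Erbb2 cells ran from -0.72 to 0.14 with a median of -0.343. The groups overlapped between the lowest untransfected and the highest Erbb2 arrays.

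Dye swaps gave a check within each group. The mean over arrays with treated RNA in Cy5 and the mean over those in Cy3 had opposite signs for 28 of 53 members at 10 µM (52.8%), 23 at 5 µM (43.4%) and 26 in the untransfected group (49.1%). Over all features the shares were 50.4%, 48.9% and 41.9%. At 10 µM 11 members were above 0 and 14 below 0 under both arrangements. The dye term itself called 0 of 53 members and 0% of features, with 4 members at an unadjusted p under 0.05 (7.55% against 8.05%).

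**Figure D3:**
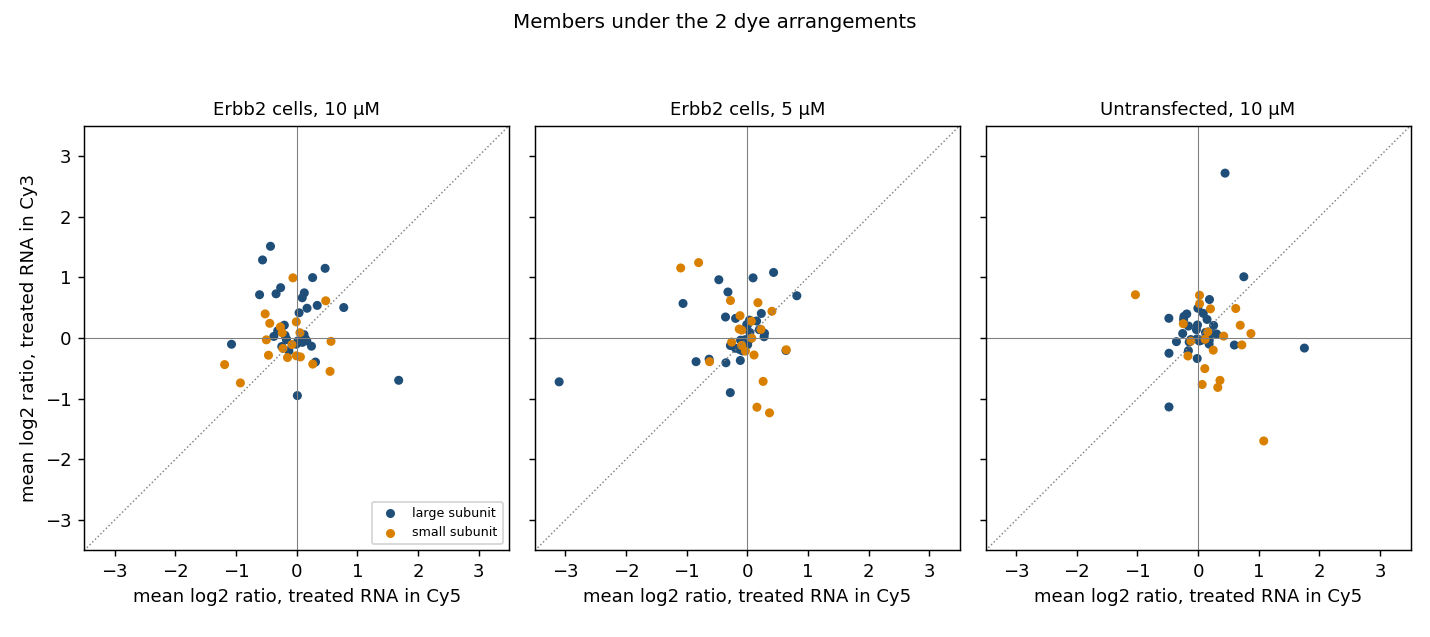
Each member's mean log2 ratio of treated over untreated RNA over the arrays with treated RNA in Cy5 (horizontal axis) and over those with it in Cy3 (vertical axis), in the 3 groups. Members on the dotted line agree between arrangements, and 28, 23 and 26 of 53 lie in the 2 quadrants of opposite sign.

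A ratio of one sign on every array was rare at 10 µM, where 0 members and 3.35% of all features had it. At 5 µM 6 members were above 0 on every array with a ratio (Mrpl13, Mrpl18, Mrpl44, Mrpl54, Mrps15 and Mrps18c) and 8 below 0 (Mrpl3, Mrpl30, Mrpl34, Mrpl35, Mrpl51, Mrpl55, Mrpl58 and Mrps21), or 26.4% of members against 18.5% of features. In untransfected cells as read 7 were above 0 on every array (Mrpl2, Mrpl28, Mrpl47, Mrpl55, Mrps7, Mrps10 and Mrps11) and 1 below (Mrpl23), or 15.1% against 25.5%.

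The proteins of the cytosolic ribosome gave other values on the same arrays. On single arrays, the median of the members lay between -0.10 and 0.14 in Erbb2 cells at 10 µM, between -0.054 and 0.073 at 5 µM and between 0.008 and 0.098 in untransfected cells. The median of the cytosolic ribosomal protein genes was below 0 on 16 of 16 arrays as read, and on 12 of 16 with the untransfected arrays turned. As read it lay between -0.42 and -0.24, between -0.39 and -0.20 and between -0.75 and -0.57. In the fit, 17 of 52 cytosolic genes were called lower at 10 µM, 0 at 5 µM and 21 in the untransfected group, where 0 of 53 mitochondrial ones were called in each. The 17 fell to 4 without arrays 3, 5 and 6, and with the untransfected arrays in the other dye that group had a cytosolic median of 0.615 and 0 lower calls. No test compared the lists. With no array turned, the cytosolic medians were 0.0, -0.066 and -0.051, so their place below 0 depends on the reading of the ratios.

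Oxidative phosphorylation genes, which encode the complexes that hold the products of this ribosome, had fitted medians of 0.149, 0.072 and -0.194 over 58 genes. Of these, 3 were called lower in untransfected cells and 0 in the Erbb2 groups. The 10 µM median was 0.059 without arrays 3, 5 and 6. With no array turned the medians were -0.059, -0.029 and -0.05, and with the untransfected arrays in the other dye theirs was 0.194 with 0 lower calls.

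**Figure D4:**
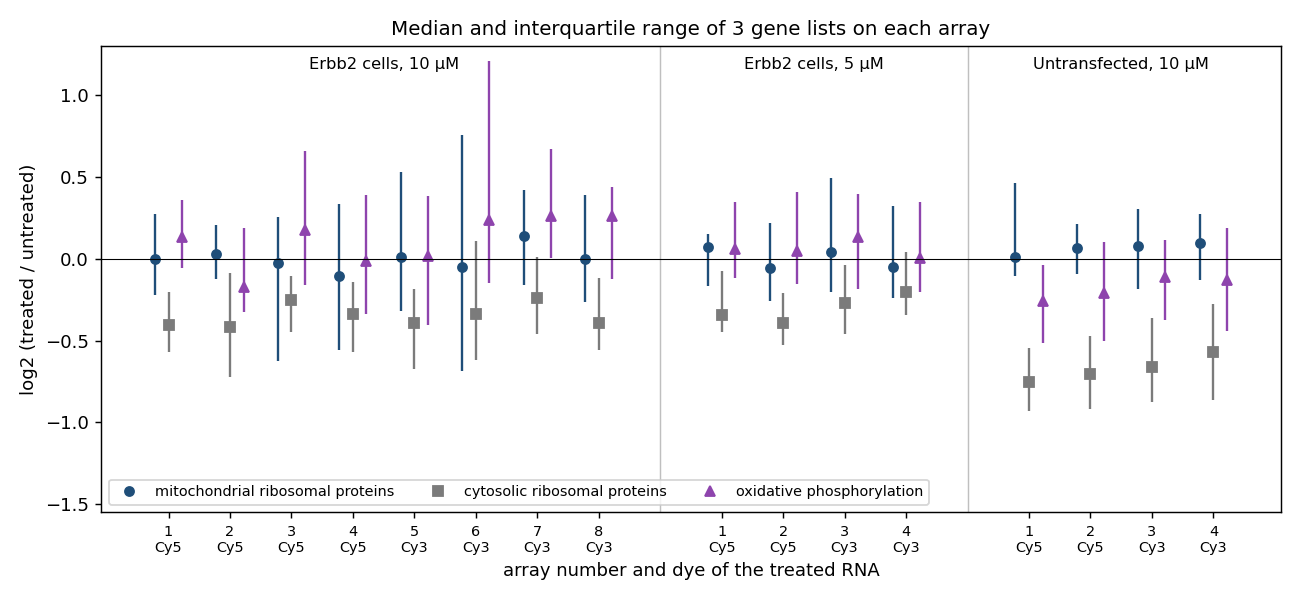
Median (symbol) and interquartile range (line) of the log2 ratio of treated over untreated RNA on each of the 16 arrays for mitochondrial ribosomal protein, cytosolic ribosomal protein and oxidative phosphorylation genes, with the array number and the dye of the treated RNA below. The mitochondrial ribosomal medians stay between -0.10 and 0.14, while the cytosolic ones as read lie below 0 on all 16 arrays, the 4 untransfected ones being of doubtful sign (12 of 16 if turned).

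Other genes that the mitochondrial ribosome works with were listed by role. Its proteins under other symbols were measured for 4 of 7 listed symbols, of which Ict1 and Mrp63 are older symbols of the members Mrpl58 and Mrpl57. The 4 were at -1.29 ± 0.52 (Chchd1), -0.73 ± 0.37 (Dap3, a GTP-binding protein of the small subunit), -0.58 ± 0.38 (Ptcd3) and -0.46 ± 0.33 (Gadd45gip1) at 5 µM (SE). All 4 lay below 0 there with a median of -0.656, and 0 were called, the lowest adjusted p being 0.673. Their median was -0.045 at 10 µM and, as read, 0.218 in untransfected cells.

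Mitochondrial translation factors, measured for 11 of 15 listed, gave 10 fitted values below 0 and 1 above at 5 µM, with a median of -0.317 and 0 called. Over all features 47.7% lay above 0 there. Neither this list nor the one before it was read with no array turned. The lowest were the initiation factor Mtif3 at -0.81 ± 0.34 and the recycling factor Gfm2 at -0.79 ± 0.34 (SE, adjusted p 0.691 and 0.726). At 10 µM 7 were above and 4 below 0. In untransfected cells as read 5 were above and 6 below.

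Assembly factors of the ribosome, measured for 15 of 26 listed, held the only gene called among these lists. C1qbp, a mitochondrial matrix protein that binds RNA, was as read lower in untransfected cells at -1.05 ± 0.16 (SE, adjusted p = 0.00217). The line difference was 0.92 ± 0.20 (adjusted p = 0.0499). With the untransfected arrays turned, C1qbp would instead be called higher there, and the size of its line difference would also change. It was named for that call after its values were seen. The measured mitochondrial aminoacyl-tRNA synthetases (4 of 17), genes of mitochondrial DNA transcription and replication (8 of 12) and regulators of nuclear genes for mitochondria (6 of 12) had 0 calls in any comparison.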

How the data were processed

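RNA was measured on 16 2-colour cDNA arrays, grouped by their titles. The authors deposited log2 ratios, 1 value per spot. The values themselves show base 2 and 1 constant per array, since a repeated highest value lies at a ratio of 1e+05 above the repeated ratio of 1 on every array. These 1755 cells were set to missing beside 38737 empty cells. How images were read and spots corrected and normalized is not given in the sources used here. The label protocol speaks of organs and control animals and was not used for grouping. The title of 1 untransfected array lacks a replicate number.

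Probes needed ratios on 3 of 4 or 6 of 8 arrays and both dye arrangements, which left 14813 of 20355. Probes of 1 gene were averaged, giving 12420 features. limma 3.58.1 in R 4.3.3 fitted 3 group coefficients and a shared dye term, with Benjamini-Hochberg adjustment over all features and a threshold of 0.05, two-sided. Among the members' probes 8.47% of cells were empty, against 11.9% overall. The number of arrays limits the precision, and signal over background is unknown. The scripts were tested on simulated data.

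Between arrays of opposite dye labels Spearman's rho was -0.142 to -0.112 in untransfected cells, whose labels are the doubtful ones, but -0.0273 to 0.0412 at 10 µM and -0.0386 to 0.0116 at 5 µM in Erbb2 cells. For same labels it was 0.166 to 0.193, 0.0375 to 0.115 and 0.0942 to 0.136. The sign was turned by dye on this basis, which is weak for the Erbb2 groups. Members, lists and tests were chosen with earlier results of these data known. Genes were named if past the threshold, among the 5 highest or lowest members of a group, or Mrpl30. In untransfected cells as read, marker lists for other cell types gave Krt8 higher (epithelial, 1 of 6 measured). Tyrobp (blood and immune, 1 of 4) and Cdh5 (endothelial, 1 of 2) were lower there as read. These lists had 0 calls in Erbb2 cells. The NRF1 and YY1 letters are 1 base shorter than first planned. Same-numbered arrays correlated at -0.0895 to 0.145 over 10 pairs, 3 of them over 0.1. Without pairs of unlike number beside them, these values cannot decide whether the numbers pair the arrays. The main fit used no pairing.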

Additional observations from a re-analysis of the deposited data

Results flagged for a closer look

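In 8 of 52 looks at a named member or the members' median in a group, 1 array stood apart from the others by Dixon's criterion. All 8 were at named members. Groups with fewer than 4 ratios were not looked at, among them Mrpl30 at 5 µM, which had 3. Chance flags about 1 in 20 groups of samples, but many of these members were named for extreme fitted values, which a single array can cause, so the share is not comparable with chance. Of these, 3 were on array 6 of the Erbb2 cells at 10 µM: Mrpl44 at 5.451 (next 1.181), Mrps16 at 3.085 (next 0.449) and Mrpl13 at -4.054 (next -1.314). Array 3 of that group gave Mrps17 at -5.330 (next -1.544) and Mrpl20 at -3.024 (next -0.796), and array 8 gave Mrpl45 at 2.642 (next 0.275). Array 3 at 5 µM gave Mrps5 at -2.405 (next 0.111), and array 4 of the untransfected cells gave Mrps10 at 1.010 (next 0.120). Arrays 6 and 3 at 10 µM also had the lowest weights of all 16 arrays in the array-weight fit, 0.368 and 0.444, and the cause was not tested.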

How the results depend on the processing

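Over 31 settings, 181 of 182 alternative fits called 0 members. The exception gave weights to arrays and called 1, Mrpl30, lower at 5 µM (adjusted p 0.0158, with a range of 0.0158 to 1 over its alternatives), while features called at 5 µM went from 26 to 118. Some of the 182 fits could not have called a member. Reading the untransfected arrays in the other dye changes p-values in the line contrast alone. A test against a 1.2-fold change can only call fewer. The dose contrast called 0 features of any kind in every setting, as did own-array fits at 5 µM and in untransfected cells. The count is therefore not a measure of how firm the result is. Of 1882 values of named members under alternatives, 120 had the opposite sign and 1 passed the threshold. With no array turned, called features were 2 at 10 µM in Erbb2 cells, 0 at 5 µM, 4 in untransfected cells, 0 for the line contrast and 213 for the dye term, and member medians were -0.09 at 10 µM and 0.015 for dye. With untransfected arrays read in the other dye, the member medians were -0.047 in that group and 0.149 for the line contrast, which then called 351 features, 72 higher and 279 lower, against 78 and 23. Requiring only 2 values per group gave 98 features at 10 µM, 4 at 5 µM and 1 for dye. Requiring all 16 values, which kept 33 members, gave 247, 73, 189 (line) and 2 (dye) and a member median of -0.034 at 5 µM. No filter gave 89, 4 and 1 (dye). Probes kept apart gave 16 at 5 µM, and arrays scaled to one spread gave 45, 33 higher and 12 lower, against 22 and 4. Each group fitted on its own arrays called 22 at 10 µM and 0 in each of the others. A test against a 1.2-fold change called 33, 4, 154 and 45 (line). Without arrays 3, 5 and 6 at 10 µM, 57 features were called there. Leaving out each array in turn gave 103 to 145 features at 10 µM, 5 to 24 at 5 µM, 213 to 372 in untransfected cells, 0 for dose, 60 to 105 for line and 0 to 1 for dye. Leave-one-out member medians were -0.017 to 0.06, -0.001 to 0.051, 0.021 to 0.071, -0.008 to 0.08 (dose), -0.093 to 0.017 (line) and -0.078 to -0.043 (dye), with 0 members called each time. The replicate block changed no call of a member: its medians were 0.007, 0.052 and 0.048, its called features 156, 25 and 338, and its consensus correlation 0.0699. Causes of these shifts were not tested beyond the number of features or arrays each setting keeps.

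Which channel is the numerator is an inference, and for untransfected cells the sign is doubtful. Without intensities, a member at 0 cannot be told from a spot at background. Groups of 4 arrays bounded 30 and 32 of 53 members within 2-fold, so a change of 2-fold was not excluded for the rest.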

Other observations

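The dye term, which holds what a probe keeps after the sign was turned, had an unadjusted p under 0.05 for Mrpl30 (-0.45 ± 0.17), Mrpl33 (-0.62 ± 0.24), Mrpl47 (-0.33 ± 0.15) and Mrps27 (0.36 ± 0.17, SE), with adjusted p from 0.571 to 0.612. These members were named after their values were seen.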
